A study of Mus musculus with 6 samples.

Results

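The rows studied here are the variable (V), diversity (D) and joining (J) segments of the T cell receptor beta chain, taken from a table of read counts for liver CD8+T cells of mice. Every row of the table whose gene name begins with Trbv, Trbd or Trbj was included, which gave 51 of 54532 rows: 35 V, 2 D and 14 J segments. All 51 lie on mouse chromosome 6 (mm10), between positions 40891229 and 41558452, and every one but Trbv31 is on the plus strand. The 6 libraries form 2 groups of 3. The CUMS group carries CUMS in the genotype field of its labels and the control group carries Wild type there. The abbreviation is not spelled out in the labels, while the series text frames the study as one of chronic stress and injury to CD8+T cells of the liver. No strain, age, stress schedule or sorting step is given in the sources used here, and nothing in them ties a library to 1 animal or to a pool. The p-values below therefore rest on the spread among libraries, part or all of which could be technical.

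The beta chain gene of a T cell is assembled in the thymus, where the RAG recombinase joins 1 V, 1 D and 1 J segment and the junction between them is trimmed and extended. The joined exon encodes the variable domain, and the junction is the loop that reads the peptide held by an MHC molecule. D and J segments lie in 2 clusters, each followed by its own constant gene, Trbc1 or Trbc2. Each clone keeps its own combination, so reads from joined receptor RNA reflect which clones are in a T cell population and how much of that RNA each makes. Counts per segment do not tell which V was joined to which J, and they do not show the junction itself. Nor do they tell whether a read came from a joined segment, so shares here are shares of reads and not of clones.

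The D segments and the J segments named next are short enough to be shown whole. The D segments share their first 5 bases, which are in capitals.
Trbd1: GGGACagggggc
Trbd2: GGGACtgggggggc

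The next set holds the J segments whose shares did not overlap between groups (Trbj1-5, Trbj1-7 and Trbj2-1). Trbj2-7, which had the largest share in every library but CUMS replicate 3, is also shown. So are 3 of the J segments that departed in CUMS replicate 2 or 3. Capitals mark the codons that close the junction loop, searched on both strands as phenylalanine (TTN), glycine (GGN), any codon (NNN) and the start of a glycine codon (GG). That run was found in 11 of the 14 J rows, on the listed strand only, and is missing as these letters from Trbj1-6, Trbj1-7 and Trbj2-6.
Trbj1-4: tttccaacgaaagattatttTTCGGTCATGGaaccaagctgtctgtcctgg
Trbj1-5: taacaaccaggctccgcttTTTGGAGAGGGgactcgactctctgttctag
Trbj1-7: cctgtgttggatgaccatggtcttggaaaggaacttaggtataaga
Trbj2-1: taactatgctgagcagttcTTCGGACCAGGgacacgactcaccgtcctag
Trbj2-3: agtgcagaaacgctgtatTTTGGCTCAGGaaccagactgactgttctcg
Trbj2-6: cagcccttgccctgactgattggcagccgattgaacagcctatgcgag
Trbj2-7: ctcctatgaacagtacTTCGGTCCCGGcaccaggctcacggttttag

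For V segments the last 30 bases are given, the end that is joined to D. The set holds the most used V row (Trbv13-2), its close relatives Trbv13-1 and Trbv13-3, the V row that was highest in CUMS replicate 2 (Trbv12-2), and the named V rows whose shares did not overlap between groups. Capitals mark TGTGCC, 1 spelling of the cysteine and alanine codons at which the junction loop starts. These letters stood in the last 30 bases of 21 of the 35 V rows, and in 12 of the 17 that averaged 1% or more of V counts. None of the 35 held them on the reverse strand.
Trbv12-2: tctgccgtgtacttcTGTGCCagctctctc
Trbv13-1: catctttgtacttcTGTGCCagcagtgatg
Trbv13-2: catcagtgtacttcTGTGCCagcggtgatg
Trbv13-3: cagctgtatatttcTGTGCCagcagtgatg
Trbv14: cagccacctatctcTGTGCCagcagtttct
Trbv15: agctgtgtatctgTGTGCCagcagtttagc
Trbv31: ctggcttctacctcTGTGCCtggagtctca

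The sequences are those of the GENCODE M21 annotation of GRCm38, in which all 51 rows have the same start and end as in the deposited table. Trbj1-5 is at chr6:41535084-41535133, Trbj1-7 at chr6:41535642-41535687, Trbj2-1 at chr6:41542754-41542803, Trbv14 at chr6:41135145-41135616, Trbv15 at chr6:41141188-41141658 and Trbv31, on the minus strand, at chr6:41557691-41558452. Trbv13-2 and Trbv13-3 were identical at 91.7% of their last 290 bases, Trbv12-1 and Trbv12-2 at 89.0%, and Trbv13-1 and Trbv13-2 at 88.6%. Reads from the stretches that such relatives share could be assigned to either, so the split within the Trbv12 and Trbv13 families is less certain than that between families. Among the J rows the closest pair, Trbj2-4 and Trbj2-5, was identical at 69.4% of positions.

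Total counts were 18012387, 15798759 and 14902248 in CUMS replicates 1, 2 and 3, and 17985688, 18023206 and 17642478 in control replicates 1, 2 and 3. Fewer genes were read in CUMS replicates 2 and 3 than elsewhere, with reads on 15012 and 14670 genes, against 20292 in CUMS replicate 1 and 17616 to 19713 in the controls. The V rows held 4996, 2876 and 3001 counts in the CUMS libraries and 4082, 3835 and 4247 in the controls. The J rows held 944, 756 and 715 counts in CUMS and 780, 683 and 743 in control. D rows were almost unread, with 21, 28 and 0 counts in CUMS and 14, 13 and 17 in control. By a limit of 3 counts, a segment with 0 counts may still make up to 0.104% of V counts and up to 0.439% of J counts in the library where that limit is highest. Limits and intervals cover counting error only, because PCR copies of 1 molecule were counted as separate reads.

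V usage was broad in every library. The 8 V rows Trbv7 to Trbv11, Trbv18, Trbv27 and Trbv28, had 0 counts throughout, and 17 of the 35 had reads in all 6 libraries. Reads fell on 27, 17 and 19 V rows in CUMS replicates 1, 2 and 3, and on 23, 24 and 21 in the controls. The rows annotated as V pseudogenes, 13 in all, together held 0.701% of V counts in CUMS replicate 1 and none in CUMS replicate 2. They averaged 0.234% ± 0.404 in CUMS and 0.218% ± 0.171 in control (SD, n = 3 each).

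Trbv13-2, the beta segment of many NKT cell receptors and a common choice of ordinary T cells, had the highest mean share over the 6 libraries. It made up 14.95%, 11.02% and 15.7% of V counts in the CUMS libraries and 14.1%, 15.3% and 13.0% in the controls. Trbv12-2 followed with 11.1%, 17.4% and 11.9% in CUMS and 8.16%, 9.73% and 12.1% in control. Trbv16 was close to level, with 10.3%, 11.1% and 12.0% in CUMS and 11.6%, 11.0% and 11.4% in control. Per base of row length, these 3 kept that order, at 16.0%, 11.8% and 11.0% of the V total. CUMS replicate 2 was the 1 library in which Trbv12-2 exceeded Trbv13-2, and the groups overlapped for all 3 segments.

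Trbv14 was the V row averaging 1% or more whose share was higher in every CUMS library than in every control. Its share was 6.43%, 10.6% and 7.63% in CUMS and 5.95%, 5.22% and 5.63% in control, or 8.21% ± 2.13 and 5.60% ± 0.370 (SD, n = 3 each). CUMS replicate 1 lay just above the highest control. CUMS replicate 2 moved the value most: without it the difference of means was 1.43 percentage points, against 2.61 with all libraries.

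Trbv15 and Trbv31 had lower shares in every CUMS library. The Trbv15 share was 3.28%, 1.67% and 2.77% in CUMS and 3.99%, 4.12% and 7.42% in control, a difference of -2.60 points that became -1.48 without control replicate 3. For Trbv31, the segment that lies downstream of the constant genes in the opposite orientation and joins by inversion, the shares were 1.32%, 0% and 1.80% in CUMS and 2.87%, 2.11% and 2.35% in control. Its 0 of 2876 counts in CUMS replicate 2 allows a share of up to 0.104% by the limit of 3 counts, or 0.128% by the exact 95% interval. Without that library the Trbv31 difference was -0.884 points, against -1.40 with it.

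Trbv30 also did not overlap, at 0.480%, 0.904% and 0.700% in CUMS and 0.343%, 0.391% and 0.165% in control. It was singled out after its values were seen, since it averaged under 1% of V counts. In all, 4 of the 35 V rows had shares that did not overlap between groups, 2 in each direction. Across all 14054 genes tested, the levels in CPM (counts scaled to a common library size) did not overlap in 22.7%. All 4 of these V rows are among the 19 that passed the same filter on low counts, so their number is near that background and is not a result about V rows.

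Other V segments differed between single libraries more than between groups. Trbv1, which NKT cells also use, ran at 6.67%, 3.58% and 10.1% in CUMS and 8.84%, 7.46% and 5.37% in control. In the Trbv13 family, Trbv13-1 was at 4.46%, 3.09% and 1.07% in CUMS and 4.68%, 4.64% and 3.34% in control. Its neighbour Trbv13-3, used by many MAIT cells, was at 3.50%, 6.95% and 2.63% in CUMS and 3.41%, 3.73% and 2.17% in control. CUMS replicate 3 was lowest for Trbv13-1 and CUMS replicate 2 highest for Trbv13-3, so the family members did not move together. Trbv19, the other MAIT segment, averaged 4.33% ± 0.910 in CUMS and 5.27% ± 0.482 in control, and Trbv29, the other NKT segment, 3.65% ± 0.171 and 3.23% ± 0.544 in the same order. Trbv3, Trbv12-1 and Trbv17 averaged 7.23% ± 1.21, 4.98% ± 0.664 and 5.87% ± 0.593 in CUMS, against 6.90% ± 0.716, 4.70% ± 1.24 and 6.06% ± 0.461 in control. Trbv12-1 is the closest relative of Trbv12-2, and its groups overlapped too.

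**Figure D1:**
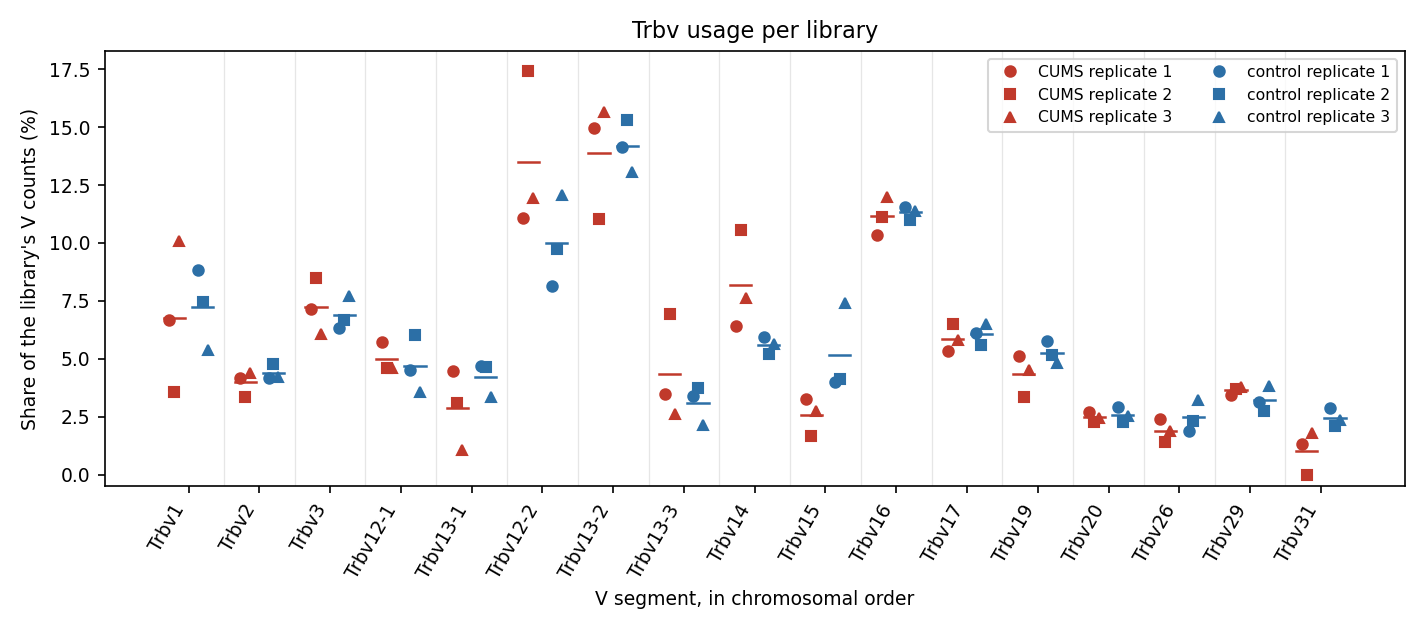
Share of each library's V counts (%) taken by the 17 V segments that averaged 1% or more, in chromosomal order, with 1 point per library and a bar at each group mean (CUMS in red, control in blue). CUMS replicate 2 is highest for Trbv12-2 at 17.4% and Trbv14 at 10.6%, and at 0% for Trbv31.

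The D segments gave too few reads to compare. Trbd2, which opens the downstream cluster and is joined to Trbj2 segments only, took 7 of 21 D counts in CUMS replicate 1 and 0 of 28 in CUMS replicate 2, and CUMS replicate 3 had no D count. In the controls it took 6 of 14, 3 of 13 and 9 of 17. The Trbd2 share was 33.3% (exact Clopper-Pearson 95% interval 14.6 to 57.0%) in CUMS replicate 1, and its interval in CUMS replicate 2 was 0 to 12.3%. The remaining counts fell on Trbd1, which can join to J segments of either cluster, at 14, 28 and 0 counts in CUMS and 8, 10 and 8 in control. These rows are 12 and 14 bases long, so only reads placed on those few bases count there.

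J usage differed between the CUMS libraries and was more alike among the controls. Trbj2-7 took 15.9%, 20.6% and 5.03% of J counts in CUMS and 15.1%, 17.3% and 15.9% in control. It had the largest share in every library but CUMS replicate 3. Per base over the 6 libraries, Trbj2-7 stood at 15.8% of the J total and Trbj1-5 at 15.1%, the highest of the 14.

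Trbj1-5 took 12.4%, 13.9% and 34.8% of J counts in CUMS and 9.74%, 11.0% and 9.42% in control. All 3 CUMS libraries were above all controls, and CUMS replicate 3, with 249 of its 715 J counts on this segment (exact 95% interval 31.3 to 38.4%), was far above the rest. The group means were 20.4% ± 12.5 in CUMS and 10.05% ± 0.823 in control (SD, n = 3 each).

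Trbj1-7 was at 7.10%, 13.6% and 6.71% in CUMS and 3.33%, 6.15% and 3.63% in control. Here CUMS replicate 2 was the highest, and CUMS replicate 3 lay just above the highest control. Trbj1-7 was among the 3 J rows without the codon letters shown above.

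Trbj2-1, the first J segment of the downstream cluster, went the other way. Its shares were 3.81%, 0% and 2.38% in CUMS and 8.21%, 10.1% and 6.33% in control, with means of 2.06% ± 1.93 and 8.21% ± 1.89 (SD, n = 3 each). The 0 of 756 J counts in CUMS replicate 2 allows a share of up to 0.397% by the limit of 3 counts, or 0.487% by the exact 95% interval. With Trbj1-5, Trbj1-7 and Trbj2-1, 3 of the 14 J rows did not overlap between groups, beside the 22.7% of all genes tested whose CPM did not overlap. Their number is near that background and is not a result about J rows.

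Some further J segments departed from the rest in CUMS replicate 2, in CUMS replicate 3 or in both. Trbj2-3 was at 4.66%, 14.7% and 2.24% in CUMS and 2.95%, 3.81% and 4.44% in control. Trbj2-6, annotated as a pseudogene, was at 3.50%, 3.31% and 13.4% in CUMS and 4.36%, 3.37% and 1.62% in control. Trbj2-3 stood out in CUMS replicate 2 and Trbj2-6 in CUMS replicate 3, so the segments raised in these libraries were not the same ones.

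Trbj1-4 was at 12.5%, 6.08% and 0.979% in CUMS and 10%, 11.0% and 15.5% in control, with only 7 counts in CUMS replicate 3. Trbj1-6 was at 9.96%, 3.04% and 6.29% in CUMS and 9.74%, 7.32% and 14.1% in control. For both, CUMS replicate 1 lay within the control range and the other CUMS libraries below it.

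The remaining J segments overlapped. Trbj1-2 averaged 8.09% ± 1.78 in CUMS and 8.41% ± 0.863 in control, and Trbj1-3 averaged 9.58% ± 3.66 and 12.1% ± 2.61 in that order. Trbj2-2 and Trbj2-5 averaged 2.99% ± 1.08 and 4.93% ± 2.63 in CUMS, against 4.45% ± 1.06 and 3.52% ± 0.766 in control. Trbj2-4 was unread in CUMS replicate 3 and averaged 1.13% ± 1.07 in CUMS and 2.78% ± 1.38 in control. Trbj1-1 had 12, 12 and 0 counts in CUMS and 9, 5 and 0 in control.

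**Figure D2:**
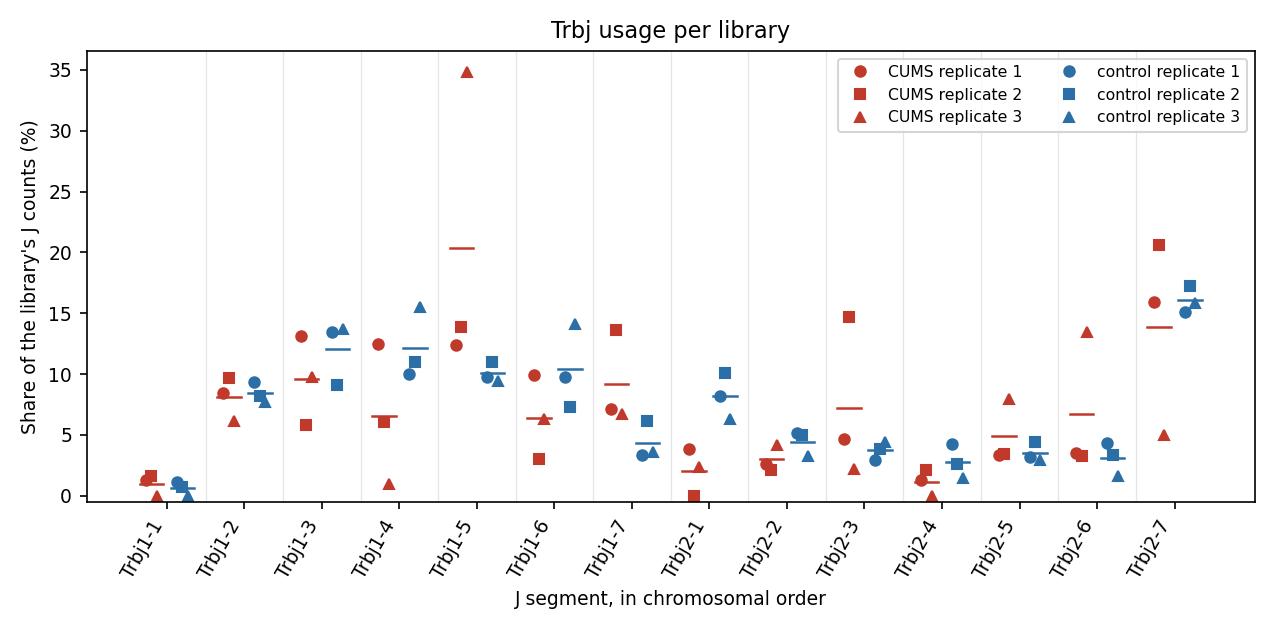
Share of each library's J counts (%) taken by each of the 14 J segments, in chromosomal order, with 1 point per library and a bar at each group mean (CUMS in red, control in blue). CUMS replicate 3 is at 34.8% for Trbj1-5 and CUMS replicate 2 at 14.7% for Trbj2-3, while no control exceeds 17.3% for any segment.

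The choice between the clusters did not separate the groups. Trbj2 segments together made up 35.2%, 46.3% and 35.2% of J counts in CUMS and 43.2%, 46.6% and 35.9% in control, or 38.9% ± 6.40 and 41.9% ± 5.43 (SD, n = 3 each). The constant gene of that cluster, Trbc2, took 62.5%, 65.8% and 62.7% of the counts on Trbc1 and Trbc2 in CUMS and 62.5%, 61.8% and 61.1% in control. Those values did not overlap, though CUMS replicate 1 was barely above the highest control, and Trbc1 and Trbc2 are near-identical copies whose reads counting can split either way.

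Evenness of usage was measured as Pielou's index, the Shannon entropy of the shares over the log of the number of segments in the class, which is 1 when all are equal. For J segments it was 0.914, 0.863 and 0.794 in CUMS and 0.935, 0.933 and 0.882 in control, with means of 0.857 ± 0.0599 and 0.917 ± 0.0303 (SD, n = 3 each). CUMS replicates 2 and 3 were below all controls, and CUMS replicate 1 was among them. In effective numbers of equally used segments, these are 11.1, 9.76 and 8.13 in CUMS and 11.8, 11.7 and 10.2 in control. The mean difference was -0.0598. It was -0.0283 without CUMS replicate 3 and -0.00326 without CUMS replicates 2 and 3.

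V evenness was 0.775, 0.725 and 0.741 in CUMS and 0.776, 0.769 and 0.763 in control, with means of 0.747 ± 0.0258 and 0.769 ± 0.00654 (SD, n = 3 each). The effective number of V segments was 15.7, 13.2 and 13.9 in CUMS and 15.8, 15.4 and 15.1 in control. Again CUMS replicate 1 lay within the control range and the other CUMS libraries below it. The difference of -0.0224 was -0.0113 without CUMS replicate 2, and it was 0.00591, of the opposite sign, when CUMS replicates 2 and 3 were both left out. Those libraries are also the ones with fewer genes read over the whole table, and the part of this in the lower evenness was not tested. With 3 libraries against 3 an exact permutation test cannot give a two-sided p below 0.1, and no such test was made of evenness or of single shares.

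The distance between usage profiles is the percent of counts that would have to move to another segment to make them equal. For J usage it set CUMS replicates 2 and 3 apart, as evenness did, and for V usage only CUMS replicate 2. From the mean control J profile, CUMS replicates 1, 2 and 3 lay at 8.48%, 31.0% and 41.9%. The controls lay at 9.33%, 11.4% and 14.1%, each measured from the mean of the other controls. Between CUMS libraries the J distances were 25.2 to 47.3%, against 11.1 to 16.6% between controls, so CUMS replicates 2 and 3 were also far from each other. From the mean control V profile the distances were 5.79%, 19.4% and 9.97% in CUMS. They were 7.11%, 6.59% and 10.9% in control, each again measured from the mean of the other controls. By V usage, CUMS replicate 2 stood apart and CUMS replicate 3 did not. The chi-square of J counts per degree of freedom was 13.2 to 28.9 between pairs of CUMS libraries and 1.94 to 4.28 between pairs of controls, where counting error alone would give about 1.

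**Figure D3:**
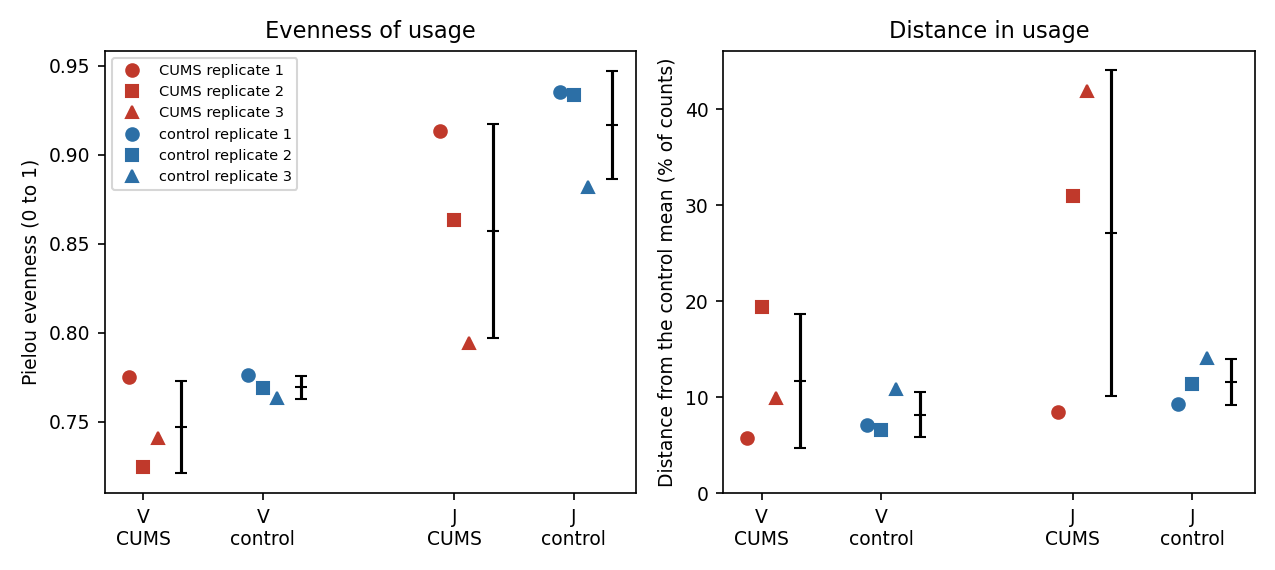
Left, Pielou evenness of V and J usage in each library (0 to 1, axis cut). Right, distance of each library's usage from the control mean (% of counts), where a control is measured from the mean of the other controls. Points are libraries, CUMS left of control, and black bars are mean ± SD of 3 libraries. CUMS replicates 2 and 3 have the lowest J evenness, 0.863 and 0.794, and the largest J distances, 31.0% and 41.9%.

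The level of each segment was tested with edgeR's quasi-likelihood test on the whole table, with Benjamini-Hochberg adjustment over all 14054 genes tested. Of the 51 segments, 32 passed the filter on low counts (19 V, 0 D and 13 J), and none of them passed an adjusted p of 0.05, whereas 1.31% of all genes tested did. DESeq2 called none of the 32 either, against 5.19% of the genes to which it gave an adjusted p, and gave none for 3 segments. At an unadjusted p under 0.05 edgeR picked 3 of the 32 segments, against 15.3% of all genes. The CPM of 6 segments did not overlap between groups, against 22.7% of all genes. Segments that passed the filter are those with more reads, and those counts do not speak for the 19 that did not pass.

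Trbj1-5 came closest to the threshold. Its level was 6.57, 6.46 and 16.4 CPM in CUMS and 4.30, 4.22 and 4.01 CPM in control, a log2 fold change of 1.23 ± 0.40 (SE) with an adjusted p of 0.168 by edgeR. All CUMS libraries were above all controls, and the controls were nearly equal. Without CUMS replicate 3 the log2 fold change was 0.64 ± 0.33 (adjusted p = 0.396 by edgeR), and over all alternatives that adjusted p ran between 0.0690 and 0.528. For Trbj1-7 the levels were 3.76, 6.34 and 3.17 CPM in CUMS and 1.47, 2.36 and 1.55 CPM in control, 1.30 ± 0.54 higher on the log2 scale (adjusted p = 0.279 by edgeR). Trbv15 stood at 9.21, 2.96 and 5.48 CPM in CUMS and 9.23, 8.88 and 18.05 CPM in control, or -1.03 ± 0.42 on the log2 scale (adjusted p = 0.272 by edgeR), and its groups overlapped. That value was -0.63 without control replicate 3, -0.71 without CUMS replicate 2 and -1.52 without CUMS replicate 1. Without CUMS replicates 2 and 3 no segment had an unadjusted p under 0.05, but that fit holds 1 CUMS library, assumed to vary like the controls, and called 7 of 15940 genes, so it says little about single segments.

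The other named segments with shares that did not overlap were further from the threshold. Trbv14 averaged 17.3 ± 1.91 CPM in CUMS and 12.9 ± 1.43 CPM in control (log2 fold change 0.42 ± 0.21, edgeR adjusted p = 0.373). Trbv31 averaged 2.42 ± 2.10 CPM in CUMS and 5.64 ± 1.04 CPM in control, and Trbj2-1 averaged 1.05 ± 1.01 and 3.40 ± 0.625 CPM in that order. Their edgeR adjusted p-values were 0.595 and 0.492. When the fit used each class's total as its scale, so that it tested shares, again no segment passed, and Trbv15, Trbj1-5 and Trbv14 had an unadjusted p under 0.05. The spread between libraries that edgeR fitted, as a biological coefficient of variation, had a median of 28.3% over the V rows, 56.6% over the J rows and 20.3% over all genes tested. The J rows were read at low levels, and these medians were not compared with those of genes at the same level.

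**Figure D4:**
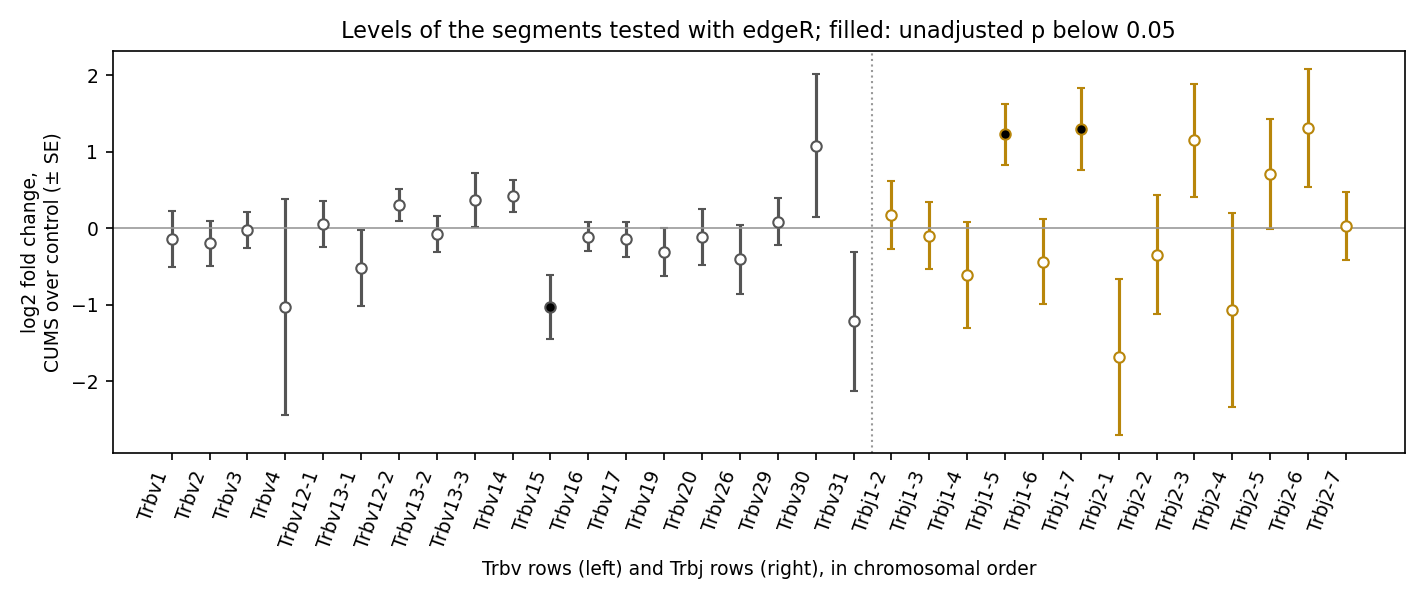
Log2 fold change of level, CUMS over control, with its standard error, for the 32 segments tested by edgeR (V left, J right, in chromosomal order). Filled points, Trbv15, Trbj1-5 and Trbj1-7, have an unadjusted p below 0.05, and no segment passed the adjusted threshold.

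Summed over the class, J rows stood at 53.0, 46.5 and 47.2 CPM in CUMS and 44.2, 38.4 and 42.6 CPM in control. The means were 48.9 ± 3.56 and 41.7 ± 2.98 CPM (SD, n = 3 each). These sums did not overlap between groups, as was so for 22.7% of all genes tested. Of the counts on J rows, Trbc1 and Trbc2 together, J rows held 5.37% ± 0.0923 in CUMS and 5.58% ± 0.832 in control, and the groups overlapped. V rows stood at 281, 177 and 198 CPM in CUMS and 231, 216 and 243 CPM in control, where CUMS replicate 1 was highest and CUMS replicate 2 lowest. D rows summed to 1.18, 1.72 and 0 CPM in CUMS and 0.793, 0.731 and 0.974 CPM in control. In a bulk sample, fewer cells carrying a segment and less RNA per cell cannot be told apart.

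The other genes of the receptor and of its assembly were read from a list of 27, of which 24 were in the table, 21 were tested and the 3 gamma constant genes Trgc1, Trgc2 and Trgc4 were not analysed here. One rose and 1 fell, beside 0.363% and 0.946% of all genes tested in those directions, and the median log2 fold change was 0.18, against -0.01 over all genes. Cd8a, the alpha chain of the CD8 coreceptor, rose to 1180 ± 32.8 CPM in CUMS, against 800 ± 51.7 CPM in control (log2 fold change 0.56 ± 0.09, edgeR adjusted p = 0.0225). Cd4, the coreceptor of helper T cells, fell to 94.0 ± 2.30 CPM in CUMS, against 230 ± 11.2 CPM in control (log2 fold change -1.29 ± 0.10, edgeR adjusted p = 0.000362). Without CUMS replicate 2, control replicate 1 or control replicate 2 the call of Cd8a was lost, at adjusted p = 0.0822, 0.0728 and 0.151. Cd4 passed in every alternative.

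The constant genes carried more reads than the segments did. Trbc2 averaged 548 ± 25.3 CPM in CUMS and 441 ± 53.0 CPM in control, Trbc1 averaged 314 ± 34.9 and 272 ± 27.4 CPM, and Trac, the constant gene of the alpha chain, averaged 453 ± 27.9 and 404 ± 27.2 CPM in the same order (SD, n = 3 each). None of these passed the edgeR threshold, with adjusted p-values of 0.211, 0.482 and 0.506. Of the genes that act in the thymus, Rag2 and Ptcra had 0 counts in all libraries, and Rag1 had 0, 0 and 21 counts in CUMS and 6, 6 and 0 in control. Dntt, the enzyme that adds bases at the junction, was read at 6.34 ± 1.83 CPM in CUMS and 5.23 ± 0.218 CPM in control.

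Markers of some of the other cells that could bring their own beta chains, or dilute the T cell reads, differed as well. The CD4 T cell markers (Cd4, Zbtb7b, Cd40lg and Foxp3) summed to 154 to 168 CPM in CUMS and 342 to 396 CPM in control, and 4 of 4 fell, against 0.946% of all genes tested. The alpha beta T cell markers summed to 2296 to 2549 CPM in CUMS and 2024 to 2242 CPM in control, with 0 of 6 past the threshold, and the CD8 markers Cd8a and Cd8b1 to 1974 to 2234 and 1442 to 1597 CPM in that order. All of the markers of the labelled cell type were therefore present in every library. CD4 T cells use the same beta segments, and the part of their lower level in the segment shares was not tested.

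NKT markers summed to 4.27 to 7.39 CPM in CUMS and 8.08 to 11.0 CPM in control, most of it from Zbtb16, with Trav11 at 0 throughout and none past the threshold. MAIT markers summed to 0 to 2.09 CPM in CUMS and 0.562 to 1.30 CPM in control. Of the gamma delta list, 2 of 5 genes were matched by name in the table, at 17.4 to 37.8 CPM in CUMS and 34.1 to 46.5 CPM in control. These sums were the lowest of the lists read. They rest on few or barely read genes, so they do not measure how many such cells there were. Monocyte and neutrophil markers summed to 1308 to 1792 CPM in CUMS and 2398 to 3616 CPM in control, with 4 of 8 lower past the threshold, against the same 0.946% of all genes. Those of B and plasma cells (87 to 112 CPM in CUMS, 95 to 107 CPM in control) and of hepatocytes (113 to 131 CPM in CUMS, 144 to 278 CPM in control) had no member past it. The hepatocyte sum is mostly Hp, while Alb (7.59 ± 1.32 CPM in CUMS, 5.59 ± 1.17 CPM in control) and Apoa1 (3.01 ± 0.908 and 1.02 ± 0.257 CPM in that order) were higher in every CUMS library. Cells of these last kinds have no rearranged beta chain. Their part in the levels in CPM was not tested, nor was their part in the shares through reads from unjoined segments.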

How the data were processed

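Messenger RNA of liver CD8+T cells was sequenced in bulk, 3 CUMS and 3 control libraries, grouped by sample title. The authors deposited unnormalized counts of reads for each gene. The submitters' processing notes name mm10, featureCounts 1.5.0-p3, HISAT2 2.0.5, fastp and DESeq2 1.20.0. Not given in the sources used here are the annotation release, the strand setting and how reads in overlapping rows were treated. Reads crossing a V-D-J junction may be lost to a genome aligner, and D and J rows are shorter than a read, so shares compare a segment between libraries better than segments with each other. Trbv4 and Trbv5 overlap 5830405F06Rik on the same strand. Trbv8, Trbv9 and Trbv10, which were unread in every library, overlap Gm37610 on the same strand. The part of these overlaps in the counts of those rows was not tested.

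Shares are counts over the summed counts of the class in that library. CPM used edgeR's TMM factors. Tests used edgeR 4.0.16 in R 4.3.3 (filterByExpr, TMM, legacy glmQLFit, glmQLFTest) over all 14054 genes kept, two-sided, Benjamini-Hochberg threshold 0.05. The steps were tested on simulated counts. Intervals are exact Clopper-Pearson at 95%, and the limit that a count of 0 allows is 3 counts. No pair of libraries of a group agreed within counting noise (chi-square per gene 9.27 to 33.5).

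The members, the gene lists and the rule for named genes were chosen with earlier results of these data known. The rule names every D and J row, the 8 V rows of highest mean share, V rows averaging at least 1% whose shares do not overlap, segments tied to NKT or MAIT cells, and Trbv31. Alternatives were other scalings (median-of-ratios, library size alone, class totals), no filter and a stricter one, DESeq2 1.42.0, the replicate number as a block, other indices and denominators, each library left out, and CUMS replicates 2 and 3 left out. Sequences were read with Biopython 1.88; figures were drawn with matplotlib 3.10.9.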

Additional observations from a re-analysis of the deposited data

How the results depend on the processing

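No segment passed the edgeR threshold under any alternative run, and no result among those compared reversed a call; leaving out single libraries gave 0 to 0 segments called. The mean difference in J evenness was -0.151 with the inverse Simpson index over the number of segments, a scale other than that of Pielou's index. Leaving out CUMS replicates 2 and 3 together left Pielou differences of -0.00326 for J and 0.00591 for V. In that setting the summed levels differed by 50.6 CPM for V rows and 11.3 CPM for J rows, since the CUMS value then rests on CUMS replicate 1 alone. Without 1 library the differences ranged from -0.0366 to -0.0113 for V evenness (the weakest without CUMS replicate 2), from -0.0880 to -0.0283 for J evenness (the weakest without CUMS replicate 3), from -6.69 to -0.667 points for the Trbj2 share, from -39.6 to -6.29 points for Trbd2, from -42.4 to 9.33 CPM for V rows, from 5.16 to 8.44 CPM for J rows and from -0.243 to 0.619 CPM for D rows. Of the receptor assembly list, 2 genes passed with all libraries, 4 with no filter, 1 with the replicate number as a block, 1 without CUMS replicates 2 and 3, and 1 to 3 with 1 library left out.

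Over all genes, 184 passed, against 704 with no filter, 316 with the stricter filter, 644 with DESeq2, 71 with the block, 9 to 178 with 1 library left out and 7 without CUMS replicates 2 and 3. Same-numbered libraries did not deviate together (correlations of 0.014, -0.036 and -0.037, against -0.015 to 0.042 for libraries of different numbers). Such correlations gave no sign of pairing, but they cannot show that the samples were not paired. With the block 0 segments passed and Cd8a missed, at adjusted p = 0.0656 by edgeR. With 683 to 944 J counts per library, a J segment of a few percent rests on few counts, which limits how small a shift can be seen.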
